A study of Mus musculus with 6 samples.

Results

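The miRNAs described here come from imprinted loci of the mouse other than the large Dlk1-Dio3 and Sfmbt2 clusters. They are the 5p and 3p arms of miR-335 (Mest locus), miR-675 (H19 locus), miR-483 (Igf2 locus), and miR-296 and miR-298 (Gnas locus), which makes 10 names. Members were found by an exact match of these names with the names of the deposited count table, and 7 of the 10 were found among its 1364 miRNAs. The 7 are mmu-miR-335-5p and mmu-miR-335-3p, mmu-miR-483-5p and mmu-miR-483-3p, mmu-miR-298-5p and mmu-miR-298-3p, and mmu-miR-296-3p (written below without the prefix for mouse), while miR-296-5p, miR-675-5p and miR-675-3p were not analysed here.

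Small RNA was sequenced from the nucleus accumbens (NAc), a forebrain region of the reward circuit, of adult male C57BL/6N mice bought at 7 to 8 weeks of age. The 3 morphine libraries came from mice conditioned for 6 days with morphine (10 mg/kg, intraperitoneal) in the conditioned place preference (CPP) model, with saline given in the alternating sessions. The 3 saline libraries came from mice that received saline in the same training. The NAc, core and shell together, was collected on day 7, 0.5 h after the CPP test, and the sample records describe 2 mice per library while a figure legend of the study names 1. In such bulk tissue, fewer cells of a type and less of a miRNA per cell cannot be told apart.

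An imprinted gene is expressed from the allele of only 1 parent, and many such genes act in growth, metabolism and behavior. Mest is expressed from the paternal allele, and miR-335 is made from an intron of its transcript. H19, a maternally expressed lncRNA, is the precursor of miR-675. Igf2, a paternally expressed growth factor gene, carries miR-483 in an intron. miR-296 and miR-298 lie next to each other at the Gnas locus, on the strand of Nespas, a paternally expressed antisense transcript. Each hairpin is cut into a duplex, and the arm that is loaded into Argonaute is usually the more abundant. These libraries do not separate the parental alleles.

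The mature sequences of the 7 listed miRNAs are shown because their seeds and base composition are used below, with the seed (bases 2 to 8) in capitals.
mmu-miR-335-5p: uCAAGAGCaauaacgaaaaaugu
mmu-miR-335-3p: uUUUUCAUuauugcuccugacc
mmu-miR-298-5p: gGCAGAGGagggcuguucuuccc
mmu-miR-298-3p: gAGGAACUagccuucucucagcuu
mmu-miR-296-3p: gAGGGUUGgguggaggcucucc
mmu-miR-483-5p: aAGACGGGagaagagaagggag
mmu-miR-483-3p: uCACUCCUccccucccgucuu

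The sequences are from RefSeq (GRCm38.p6), which held 1089 of the 1281 names of the table that come from miRBase. None of the 7 shared its seed with another of these 1089 miRNAs or with another of the 7. The longest stretch that any of the 7 shared with another listed miRNA was 11 bases, between miR-298-5p and miR-7047-5p. The arms of miR-335 were rich in A and U, with a GC content of 30.4% for miR-335-5p and 36.4% for miR-335-3p. The others were at 50% (miR-298-3p), 54.5% (miR-483-5p), 61.9% (miR-483-3p), 65.2% (miR-298-5p) and 68.2% (miR-296-3p), against a median of 50% over the 1089.

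The hairpins of miR-335 and miR-298 are printed with their arms in capitals, since the use of these arms is compared below.
Mir335: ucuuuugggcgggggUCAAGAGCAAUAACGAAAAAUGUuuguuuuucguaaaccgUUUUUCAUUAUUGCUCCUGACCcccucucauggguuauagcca
Mir298: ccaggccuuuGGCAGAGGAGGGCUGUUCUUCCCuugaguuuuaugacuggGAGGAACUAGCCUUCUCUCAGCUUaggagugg

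Mir335 lies on the plus strand at chr6:30741299-30741396 (GRCm38), in an intron of all 7 Mest transcripts of the GENCODE annotation that span it. Mir296 (chr2:174267047-174267125) and Mir298 (chr2:174267504-174267585) lie on the minus strand, 378 bases apart, and no other annotated gene overlaps them. Mir298 is 13651 bases from the annotated 3′ end of Nespas, on its strand. Mir483 (chr7:142654924-142654996, minus strand) lies in an intron of Igf2. Mir675 (chr7:142577064-142577147, minus strand) overlaps an exon in 3 of the 4 H19 transcripts that span it, 77776 bases from Mir483.

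The total count was between 4.18 and 9.84 M per library, and 3 counts corresponded to 0.305 to 0.717 CPM (counts scaled to a common library total). Saline replicate 2 stood apart from the other saline libraries, with a Spearman correlation of 0.869 and 0.874 to them. Its correlation to the morphine libraries was 0.907 to 0.926. Saline replicates 1 and 3 correlated at 0.952 with each other and at 0.864 to 0.883 with the morphine libraries. These values are over the 899 miRNAs whose counts summed to at least 10. They do not settle which of the saline libraries are unusual. Base composition moved with this split of the saline libraries. Across 734 miRNAs with at least 10 counts and a RefSeq sequence, the excess of saline replicate 2 over the mean of saline replicates 1 and 3 had a Spearman correlation of -0.62 with GC content. Its median on the log2 scale was 1.69 for the 115 miRNAs with a GC content under 40% and -0.66 for the 135 with one over 60%. The log2 fold change of morphine against saline was related to GC content too, with a correlation of -0.36 in all 6 libraries and -0.59 without saline replicate 2. These are correlations across miRNAs, which share their libraries and are not independent. The part of base composition in the results below was not tested.

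Levels below are CPM after TMM scaling, which corrects the library totals with factors set on all miRNAs, and groups were compared by the quasi-likelihood test of edgeR, fitted on all 1364 miRNAs. By the study's criteria for DEmiRNAs (an unadjusted p of up to 0.05 and a log2 fold change of 0.58 or more in size), 2 of the 7 listed miRNAs were called, beside 19.4% of all miRNAs tested. miR-298-3p was higher in the morphine group and miR-296-3p was lower, where 9.68% of all miRNAs were called in each direction. With Benjamini-Hochberg adjustment, 0 of the 7 had an adjusted p under 0.05 in edgeR, beside 5.21% of all miRNAs. DESeq2 also gave 0, and 2 of the 7 had an unadjusted p under 0.05 with each tool. The values of miR-298-3p and miR-335-3p did not overlap between the groups, both higher in the morphine group, which was so for 22.1% of all miRNAs (12.2% with the morphine values above and 9.90% with them below). Of the 7 log2 fold changes, 4 were above 0 and 3 below. Their median, 0.54, was that of the sparsely counted miR-483-3p, and the median of all miRNAs was -0.15. Without saline replicate 2, 4 of the 7 were called by the study's criteria, beside 37.0% of all miRNAs, and the same 4 had an adjusted p under 0.05 in edgeR, beside 29.1%.

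**Figure D1:**
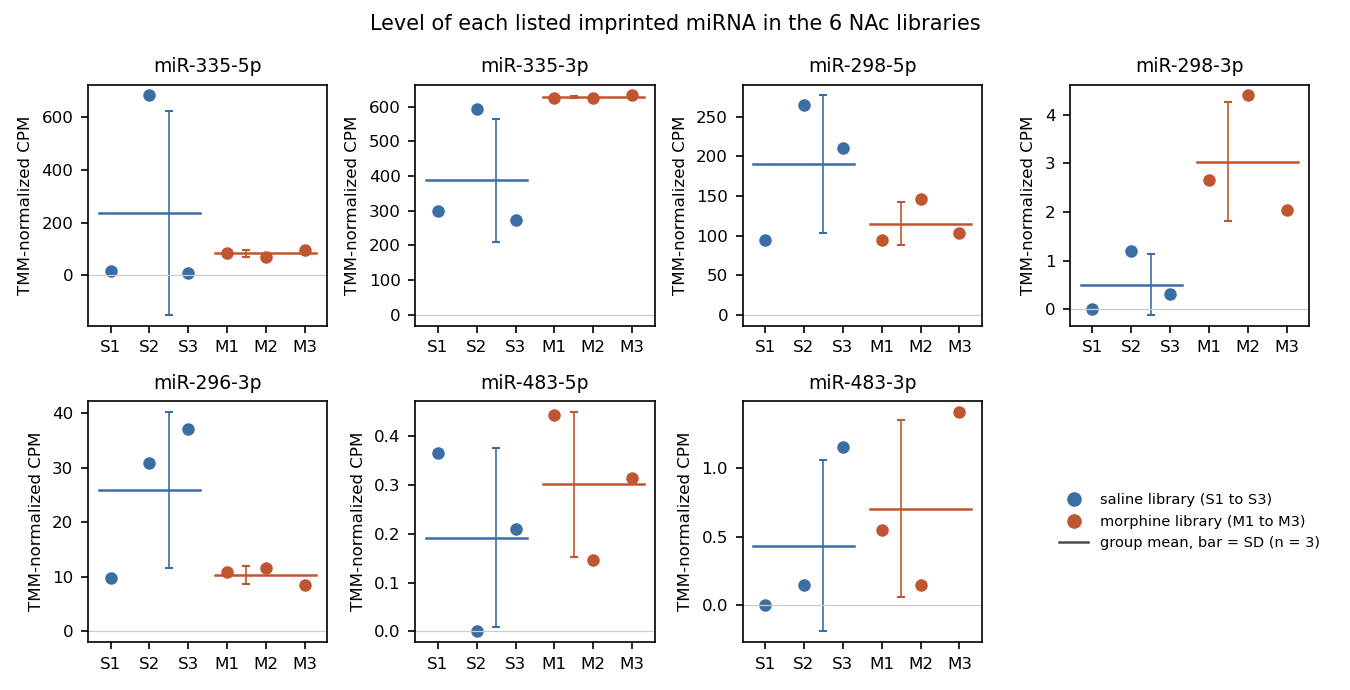
TMM-normalized CPM (vertical axes, linear, a scale for each panel) of the 7 listed miRNAs in saline libraries S1 to S3 and morphine libraries M1 to M3; points are libraries, horizontal lines group means and bars SD (n = 3). miR-335-5p stands at 683.7 CPM in S2 and at 15.4 and 10.4 CPM in S1 and S3, and the morphine values of miR-335-3p and miR-298-3p lie above all saline values.

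miR-335-5p was the member whose saline libraries differed most. It had 84, 4559 and 99 counts in saline replicates 1, 2 and 3, which is 15.4, 683.7 and 10.4 CPM. In morphine replicates 1, 2 and 3 it had 763, 473 and 621 counts, or 84.4, 69.3 and 97.5 CPM. The morphine libraries thus lay between saline replicate 2 and the other saline libraries, and the groups overlapped. Its mean was 236.5 ± 387 CPM in the saline and 83.7 ± 14.1 CPM in the morphine group (SD, n = 3 each). This gave a log2 fold change of -1.50 (SE 0.89, 95% interval -3.35 to 0.36), with an adjusted p of 0.418 in edgeR's quasi-likelihood test.

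The direction turned when saline replicate 2 was left out. Without it the log2 fold change of miR-335-5p was 2.71 (SE 0.34, 95% interval 2.03 to 3.38), higher in the morphine group, with an adjusted p of 1.64e-11 by the same edgeR test. Leaving out saline replicate 1 or 3 gave -1.94 and -1.96, with adjusted p of 0.0148 and 0.0261 in edgeR. In that fit the saline group keeps 1 library with many counts and 1 with few, so each of these values depends on which libraries stand for saline. DESeq2 set no p for this miRNA.

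Saline replicate 2 was compared with the mean of saline replicates 1 and 3 on the log2(CPM + 1) scale, a comparison chosen after the values were seen. Its excess for miR-335-5p was 5.65, and 0 of the 899 miRNAs had a higher one. The next were miR-153-3p (5.48), miR-340-5p (4.99), miR-101a-3p (4.94) and miR-101b-3p (4.45). The middle 90% of the 899 miRNAs lay between -1.77 and 2.91. miR-335-3p, from the same hairpin, had an excess of 1.05, and 221 miRNAs had a higher one. The excess was 0.90 for miR-298-5p, 0.94 for miR-298-3p, 0.66 for miR-296-3p, -0.36 for miR-483-5p and -0.35 for miR-483-3p.

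**Figure D2:**
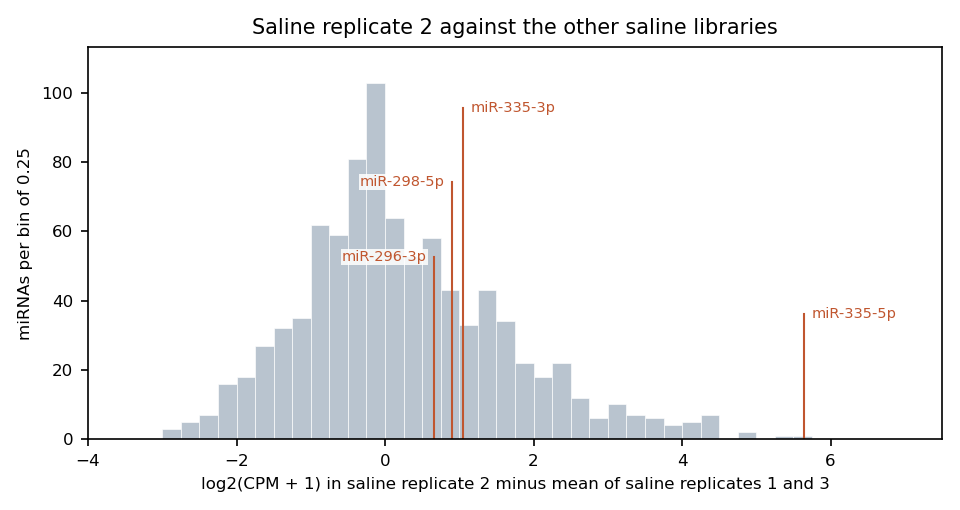
Histogram of the difference in log2(CPM + 1) between saline replicate 2 and the mean of saline replicates 1 and 3 (horizontal axis) over 899 miRNAs, in bins of 0.25 (vertical axis, miRNAs per bin); lines mark 4 listed members at their own values, and line heights only separate the labels. miR-335-5p lies at 5.65, at the right end, while miR-335-3p, miR-298-5p and miR-296-3p lie between 0.66 and 1.05.

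miR-335-3p was the most abundant member on average. Its counts were 1633, 3947 and 2600 in saline replicates 1, 2 and 3, or 298.9, 592 and 272.7 CPM. In morphine replicates 1, 2 and 3 there were 5649, 4273 and 4025 counts, or 624.9, 626.1 and 632 CPM. All morphine values were above all saline values, by a narrow margin for saline replicate 2, and the spread in the morphine group was small (627.7 ± 3.82 CPM, SD, n = 3, against 387.8 ± 177 CPM, SD, n = 3). The log2 fold change was 0.69 (SE 0.47, 95% interval -0.27 to 1.66, adjusted p = 0.466 in edgeR), with an interval that spans both directions. Without saline replicate 2 it was 1.14 (SE 0.26, 95% interval 0.63 to 1.64) with an adjusted p of 0.00014 in edgeR. Its rank by counts among the 1364 miRNAs was between 107 and 130 in the 6 libraries, while that of miR-335-5p was 106 in saline replicate 2, 329 and 359 in saline replicates 1 and 3, and 206 to 229 in the morphine libraries.

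Both arms of miR-335 come from a single precursor, and their shares within a library do not depend on the scaling between libraries. The 5p arm took 4.89% (exact 95% binomial interval 3.92 to 6.02), 53.6% (52.5 to 54.7) and 3.67% (2.99 to 4.45) of the hairpin's counts in saline replicates 1, 2 and 3. It took 11.9% (11.1 to 12.7), 9.97% (9.13 to 10.9) and 13.4% (12.4 to 14.4) in morphine replicates 1, 2 and 3. The 3p arm was thus the major arm in 5 of 6 libraries, and in saline replicate 2 the 5p arm was slightly ahead. The means were 20.7% ± 28.5 (SD, n = 3) and 11.7% ± 1.71 (SD, n = 3) (exact two-sided permutation test, p = 1, adjusted p = 1 over 3 hairpins). The morphine shares lay above those of saline replicates 1 and 3 and below that of saline replicate 2, which sets the saline mean. With 3 libraries against 3 this test cannot give a p below 0.1, so it cannot decide whether the groups differ. Without saline replicate 2 the saline mean was 4.28% and the morphine mean was higher by 7.46 percentage points, where 2 libraries against 3 cannot give an exact permutation p below 0.2. The binomial intervals treat each read as an independent draw, so they hold counting error alone and not the variation between libraries. No molecular identifiers are named in the sources used here, and PCR copies would make these intervals too narrow.

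Arm use in saline replicate 2 was compared for all 248 hairpins with both arms listed and at least 10 counts of the arms together in every library. Some entries repeat the counts of another, such as miR-122-5p and miR-122b-3p (saline mean 24.7 CPM for both), so the 248 are not all independent. The change in log2(5p/3p) from the mean of saline replicates 1 and 3 to saline replicate 2 had a median size of 1.40 over the 248. It was 4.70 for miR-335, the 8th largest in size. The major arm in saline replicate 2 differed from that in both saline replicates 1 and 3 for 22 of the 248. miR-335 was thus among the hairpins with a large shift in this library.

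**Figure D3:**
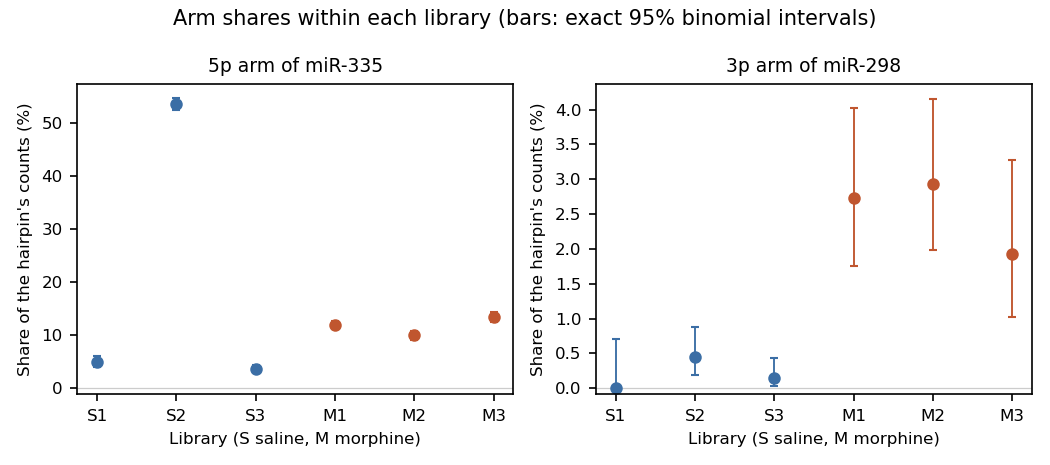
Share of the counts of the miR-335 hairpin on its 5p arm (left) and of the miR-298 hairpin on its 3p arm (right), in percent (vertical axes, from 0, different scales), in saline libraries S1 to S3 and morphine libraries M1 to M3; bars are exact 95% binomial intervals. The miR-335 share is 53.6% in S2 and at most 13.4% elsewhere, and the miR-298 share is 1.93% to 2.93% in the morphine libraries and at most 0.451% in the saline libraries.

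At the Gnas locus, the arms of miR-298 differed in the direction of their log2 fold changes. miR-298-5p, the abundant arm, had 516, 1766 and 2006 counts in saline replicates 1, 2 and 3, or 94.4, 264.9 and 210.4 CPM. It had 857, 995 and 662 counts in morphine replicates 1, 2 and 3, or 94.8, 145.8 and 104.0 CPM. Saline replicate 1 was as low as the lowest morphine library, so the groups overlapped. For this arm the log2 fold change was -0.73 (SE 0.50, 95% interval -1.76 to 0.31), with an adjusted p of 0.466 in edgeR, so no difference was established. The interval leaves room for a decrease of more than 1 log2 unit and for a small increase.

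miR-298-3p, the minor arm, was higher in every morphine library than in any saline library. It had 0, 8 and 3 counts in saline replicates 1, 2 and 3, or 0, 1.2 and 0.31 CPM. In morphine replicates 1, 2 and 3 it had 24, 30 and 13 counts, or 2.66, 4.40 and 2.04 CPM. The log2 fold change was 2.53 (SE 0.90, 95% interval 0.67 to 4.40, unadjusted p = 0.00968, adjusted p = 0.0936 in edgeR). It met the study's criteria in all 16 alternative settings, with log2 fold changes between 2.15 and 3.86. The highest was without saline replicate 2, with an adjusted p of 1.43e-05 in edgeR. The saline values are close to the floor of 3 counts, so the fitted size is imprecise.

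The share of the 3p arm in miR-298 was 0 of 516 counts in saline replicate 1 (3 counts would be 0.581%), 0.451% (exact 95% binomial interval 0.195 to 0.887) in saline replicate 2 and 0.149% (0.0308 to 0.436) in saline replicate 3. It was 2.72% (1.75 to 4.03), 2.93% (1.98 to 4.15) and 1.93% (1.03 to 3.27) in morphine replicates 1, 2 and 3. The groups did not overlap, and the intervals of the morphine libraries lay above those of the saline libraries. How many of the 248 hairpins had shares without overlap was not counted. The shift of miR-298 was among the larger ones but not the largest. From the mean of saline replicates 1 and 3 to the morphine mean, log2(5p/3p) changed by -4.33 for miR-298, with 0.5 added to each count. Changes larger in size were those of miR-9b (6.47), miR-126b (5.49), miR-148a (-5.11), miR-467c (-4.69), miR-551b (-4.39) and miR-467d (-4.37). These are not all separate cases. miR-126b-3p had the same saline mean as miR-126a-5p, and log2(5p/3p) of miR-126a changed by -1.99. Likewise, miR-467d-3p had the same saline mean as miR-467a-3p, and log2(5p/3p) of miR-467a changed by -0.34. The mean 3p share of miR-298 was 0.200% ± 0.230 (SD, n = 3) in the saline and 2.53% ± 0.529 (SD, n = 3) in the morphine group. The exact two-sided permutation test gave the smallest p that 3 libraries against 3 allow (p = 0.1, adjusted p = 0.3 over 3 hairpins), which cannot pass 0.05. With any 1 library left out, the difference in the 5p share, morphine minus saline, was between -2.63 and -2.12 percentage points. The 5p arm held at least 97.1% of the counts in every library.

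miR-296-3p, from the neighbouring hairpin, was lower in the morphine group on average. It had 53, 206 and 353 counts in saline replicates 1, 2 and 3, or 9.70, 30.9 and 37.0 CPM. It had 98, 79 and 54 counts in morphine replicates 1, 2 and 3, or 10.8, 11.6 and 8.48 CPM. Saline replicates 2 and 3 were well above the morphine libraries, but saline replicate 1 lay among them. The means were 25.9 ± 14.3 CPM (SD, n = 3) and 10.3 ± 1.62 CPM (SD, n = 3). The log2 fold change was -1.33 (SE 0.58, 95% interval -2.53 to -0.13, unadjusted p = 0.0333, adjusted p = 0.207 in edgeR). It did not hold in 6 of 16 alternative settings. These included leaving out saline replicate 3, where the log2 fold change was -0.88, and leaving out any of the morphine libraries, where it was -1.25, -1.39 and -1.21 without replicates 1, 2 and 3. Without saline replicate 2 it was -1.19 (SE 0.40, adjusted p = 0.00955 in edgeR).

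The ratio of the counts of miR-298 (both arms) to those of miR-296-3p was also taken within each library, where scaling plays no part. It was 9.74, 8.61 and 5.69 in saline replicates 1, 2 and 3 and 8.99, 13.0 and 12.5 in morphine replicates 1, 2 and 3. miR-298 was thus the more abundant in every library, and the groups overlapped. With 0.5 added to each count, the log2 ratio was 2.96 ± 0.40 (SD, n = 3) for saline and 3.49 ± 0.29 (SD, n = 3) for morphine. The difference was 0.53 (exact two-sided permutation test, p = 0.2). With 3 libraries against 3 this test cannot give a p below 0.1, so it cannot decide whether the groups differ.

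miR-483 of the Igf2 locus was near the detection limit. In saline replicates 1, 2 and 3, miR-483-5p was counted 2, 0 and 2 times, and in morphine replicates 1, 2 and 3 it was counted 4, 1 and 2 times. For miR-483-3p these counts were 0, 1 and 11 and then 5, 1 and 9. The groups overlapped for both arms, and most values were at or under the floor of 3 counts. The 95% interval of the log2 fold change was -2.40 to 3.72 for miR-483-5p and -1.98 to 3.07 for miR-483-3p (adjusted p = 0.799 and 0.80 in edgeR), so a difference was not detectable at this depth. The hairpin had 1 to 13 counts in a library, too few to read anything from its arm shares.

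**Figure D4:**
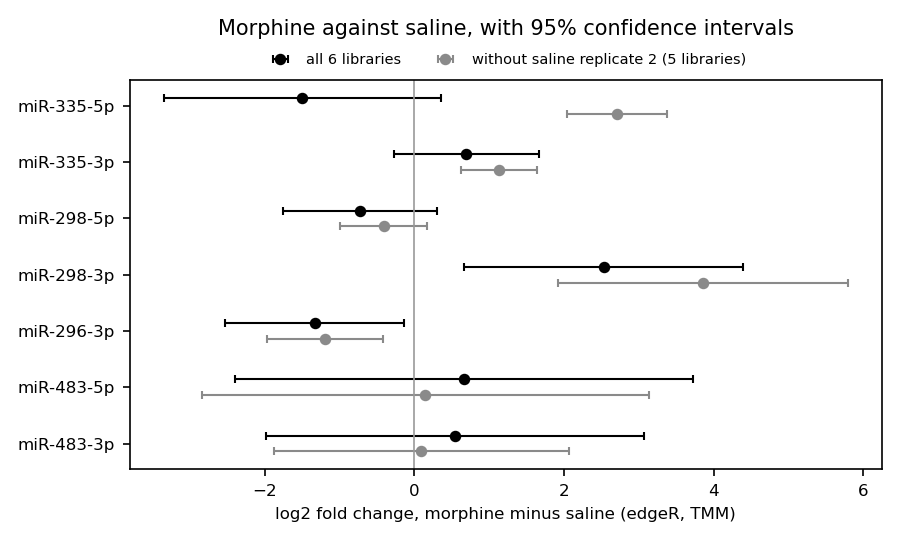
Log2 fold change of morphine minus saline (horizontal axis, edgeR after TMM scaling) with its 95% confidence interval for the 7 listed miRNAs, in all 6 libraries (black) and without saline replicate 2 (grey). miR-335-5p moves from -1.50 to 2.71 when this library is left out, while miR-298-3p (2.53 and 3.86) and miR-296-3p (-1.33 and -1.19) keep their direction.

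The order of the members by mean level was miR-335-3p, miR-298-5p, miR-335-5p, miR-296-3p, miR-298-3p and then both arms of miR-483 in the morphine group. In the saline group miR-335-5p came before miR-298-5p, through saline replicate 2, and its range spanned those of miR-335-3p and miR-298-5p. miR-298-3p overlapped both arms of miR-483 there. CPM was compared between these miRNAs without a term for length, as their lengths are 21 to 24 bases. In the morphine group the ranges of miR-298-5p (94.8 to 145.8 CPM) and miR-335-5p (69.3 to 97.5 CPM) overlapped, and so did those of the arms of miR-483. The other neighbours in the order did not overlap.

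The miRNAs most like miR-335-3p, the most abundant member, were sought among 452 miRNAs outside the members with at least 10 counts in every library, by Pearson correlation of log2(CPM + 1) over the 6 libraries. They were miR-499-5p (r = 0.997), let-7f-5p (r = 0.996) and miR-136-5p (r = 0.990), the last of which lies in the Dlk1-Dio3 imprinted cluster. These correlations describe the 6 libraries, between which depth and the base composition of the counted miRNAs differed. All 3 had lower values in saline replicates 1 and 3 than in the other 4 libraries, as had miR-335-3p.

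Other imprinted miRNAs were taken by name from the 2 large clusters. Of 105 listed miRNAs of Dlk1-Dio3, 13 were called higher and 14 lower in the morphine group by the study's criteria, with a median log2 fold change of -0.25. Of 59 listed with names of the Sfmbt2 cluster, some of which have copies elsewhere, 19 were called higher and 1 lower, with a median of 1.34. For all 1364 miRNAs these numbers were 132, 132 and -0.15. Without saline replicate 2, 59 of the Dlk1-Dio3 miRNAs were called, beside 492 of all 1328 miRNAs tested (37.0%). Without morphine replicate 1 there were 17, beside 176 of 1321 (13.3%). Without morphine replicate 3, 12 of the Sfmbt2 miRNAs were called, beside 188 of 1342 (14%).

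The neuronal miRNAs miR-124-3p and miR-128-3p were abundant in all libraries, with a summed level of 59602 to 72868 CPM in the saline group and 69389 to 106221 CPM in the morphine group. Of the 2, miR-124-3p was called lower (log2 fold change -1.88). Most of this sum was miR-128-3p, whose log2 fold change of 0.47 went the other way and did not meet the criteria. Igf2 and H19 are known in adult brain from the choroid plexus and the meninges, so markers of these tissues were examined. For 5 miRNAs of choroid plexus and ciliated ependyma the summed level was 1948 to 2768 CPM in the saline and 940.6 to 994.0 CPM in the morphine libraries, and 1 of 5, miR-204-5p, was called lower. Most of this sum was miR-204-5p, and the log2 fold changes of miR-449a-5p (0.69) and miR-34b-5p (0.17) were above 0. miR-34b-5p had no count in saline replicates 1 and 3. For 5 miRNAs of mural cells and fibroblasts the sum was 7160 to 18966 CPM and 5758 to 13851 CPM, with 1 of 5, miR-199a-3p, called higher. Nearly all of this sum was miR-143-3p (log2 fold change -0.47), while 3 of the 5 log2 fold changes were above 0, with a list median of 1.01. The endothelial miR-126a-3p was at 1454 to 4685 CPM and 10932 to 16168 CPM and was called higher. For 3 blood miRNAs the sum was 207.6 to 311.0 CPM and 357.7 to 570.7 CPM, with 1 of 3, miR-451a, called higher (log2 fold change 1.57). The other log2 fold changes were below 0, at -0.20 for miR-486a-5p and -1.31 for miR-144-3p. miR-144-3p had no count in morphine replicate 2. The sum was 67.0 to 424.7 CPM and 104.6 to 200.9 CPM for 2 oligodendrocyte miRNAs, of which miR-219a-5p was called lower, and its highest value was in saline replicate 2. miR-122-5p of liver was at 7.95 to 56.4 CPM and 5.18 to 5.75 CPM and was called lower. For 2 muscle miRNAs the sum was 58.3 to 954.1 CPM and 436.0 to 542.9 CPM, with log2 fold changes of 0.32 for miR-1a-3p and 0.27 for miR-133a-3p that did not meet the criteria. The part of these cell types in the results above was not tested.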

How the data were processed

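The authors deposited a table of raw read counts per mature miRNA for 3 saline and 3 morphine small RNA libraries, with columns named for each library (0 columns not used). Before counting, the authors discarded reads of low quality, with adapters or poly-N, or of unsuitable length, used Bowtie to filter other RNA classes and repeats, and matched what was left to miRBase. The genome build, miRBase release and strand setting are not given in the sources used here. The deposited TPM values are the same counts divided by library totals, and no test used them.

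After TMM scaling, the groups were compared by the quasi-likelihood test of edgeR 4.0.16 (R 4.3.3) in all 6 libraries without a covariate, over all 1364 miRNAs with at least 1 count. Total counts of 4.18 to 9.84 M set the precision of low counts. Standard errors came from the fitted model with moderated dispersion. Arm shares and the ratio of miR-298 to miR-296 were compared with exact permutation tests (scipy 1.17.1). Since miR-296-5p was not analysed here, the ratio used miR-296-3p alone. Positions are from GENCODE vM21 (GRCm38) and sequences from RefSeq, not from the authors' table. The members and lists were chosen with earlier results of these data known. All listed members were named, with the 3 miRNAs most like the most abundant member and the cell type markers. The alternatives were RLE, library total and upper quartile scaling, DESeq2 1.42.0, the exact test of edgeR, 2 filters on low counts, miRBase names only, thinning, the replicate number as a block and leaving out each library.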

Additional observations from a re-analysis of the deposited data

How the results depend on the processing

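The 7 members had 110 log2 fold changes under the alternatives, of which 94 kept their direction and their side of the study's criteria. Both were kept in 8 of 16 alternatives for miR-335-5p, 10 of 16 for miR-296-3p and 16 of 16 for miR-298-3p. Only miR-296-3p and miR-298-3p were called with all 6 libraries. For the other members, miR-335-5p included, staying uncalled counts as kept. In the remaining alternatives miR-335-5p became called as lower in 6 and turned its direction in 2. Leaving out each library in turn gave 1 to 4 members called and 0 to 4 with an adjusted p under 0.05 in edgeR. Over all miRNAs, 176 to 492 (13.3% to 37.0%) were called and 0% to 29.1% had such an adjusted p. Both shares were lowest without morphine replicate 1 and highest without saline replicate 2. Of the Dlk1-Dio3 miRNAs 17 to 59 were called, and of the Sfmbt2 miRNAs 12 to 28. The log2 fold change of miR-335-5p then ranged from -1.96 to 2.71 and that of miR-483-3p from -0.37 to 2.91, the lowest without morphine replicate 3. The difference in 5p share ranged from -17.5 to 7.46 percentage points for miR-335 and from -20.2 to 29.8 for miR-483, where nothing can be read from shares of 1 to 13 counts. With an adjusted p under 0.05 there was 1 member under upper quartile scaling (miR-335-5p, lower), beside 11.2% of all miRNAs, and 2 after thinning to the smallest total (miR-335-5p, lower, and miR-298-3p, higher), beside 10.8%. The causes were not tested. Library totals and upper quartile scaling gave median log2 fold changes of -0.40 and -0.35 over all miRNAs, against -0.15 with TMM, and 34.9% and 37.7% of the calls were higher, against 50%. The members kept their direction under each of these scalings.

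The replicate numbers are shared by the groups, and the deviations of same-numbered libraries correlated at -0.23, -0.28 and 0.14. With so few libraries these values cannot decide whether same-numbered libraries share more than a number. With the replicate number as a block, 1 member was called (miR-298-3p), and 179 of all miRNAs were called against 264. The log2 fold change of miR-335-5p turned to 1.35 with all 6 libraries kept (unadjusted p = 0.255, adjusted p = 0.80 in edgeR), so no difference was established. Low counts limit what can be said of miR-483 and of the size of the difference in miR-298-3p.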
